A study of Mus musculus with 6 samples.

Results

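The EGF receptor family genes described here are 3 receptor genes (Egfr, Erbb2, Erbb3) and 7 ligand genes (Egf, Tgfa, Areg, Ereg, Hbegf, Btc, Nrg1), chosen by name, and all 10 were found among the 23934 genes of the table. Their transcripts were measured by RNA sequencing of sorted skin cells from mice at day 50. There were 3 libraries of the control group, called S2, S3 and S4 here, and 3 of the Zfp750 knockout, called S5 to S7. Wherever values are listed by library, they follow that order. The 3 knockout samples are labelled ZNF750 fl/fl, and the controls ZNF750 wt/fl in 2 and wt/wt in 1. Every sample, controls included, carried a single Lrig1-CreER (1 control, 1 knockout) or Lrig1-CreERT2 (2 controls, 2 knockouts) allele, which places a tamoxifen-activated recombinase under the Lrig1 gene. All received 4-hydroxytamoxifen, started on day 4 or 5 and ended on day 7 or 8, respectively. The design text says that the sorted cells came from mice expressing tdTomato. The labels give the Rosa26 locus as -/- in all 3 knockouts and 2 controls and as +/- in 1 control, without saying what that allele is.

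The EGF receptor family consists of cell surface tyrosine kinases that pair up when a ligand binds. EGFR binds EGF, TGF-alpha, amphiregulin, epiregulin, HB-EGF and betacellulin, ERBB3 binds neuregulins and has little kinase activity of its own, and ERBB2 has no known ligand and serves as the favoured partner of the others. The ligands are made as membrane proteins that proteases release, and in skin the pathway is known for driving keratinocyte growth, hair follicle development and wound repair. Lrig1, the gene that drives the recombinase here, itself encodes an inhibitor of these receptors.

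Each ligand carries an EGF-like domain, the part that binds the receptor, held by 3 bridges between 6 cysteines. The coding sequences of that domain are shown for 6 ligands, all but Hbegf. They run from first to last cysteine, 5′ to 3′, with the cysteine codons in capitals. They were read from GENCODE M21 transcripts (GRCm38), from the longest coding transcript in which the spacing of the cysteines was found.
Nrg1: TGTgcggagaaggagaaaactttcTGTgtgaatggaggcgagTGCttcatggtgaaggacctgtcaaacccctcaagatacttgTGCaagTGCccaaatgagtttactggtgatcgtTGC
Ereg: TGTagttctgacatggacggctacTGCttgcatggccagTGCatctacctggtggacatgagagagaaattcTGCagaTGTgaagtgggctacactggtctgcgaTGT
Areg: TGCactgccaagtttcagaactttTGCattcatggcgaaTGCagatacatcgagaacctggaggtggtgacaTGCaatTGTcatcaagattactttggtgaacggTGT
Tgfa: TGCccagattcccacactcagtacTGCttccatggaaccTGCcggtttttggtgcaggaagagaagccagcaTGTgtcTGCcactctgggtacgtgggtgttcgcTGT
Btc: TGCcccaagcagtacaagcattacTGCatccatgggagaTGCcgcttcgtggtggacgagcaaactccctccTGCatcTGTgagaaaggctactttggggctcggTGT
Egf: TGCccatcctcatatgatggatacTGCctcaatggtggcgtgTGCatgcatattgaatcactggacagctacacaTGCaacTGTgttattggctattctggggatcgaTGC
The domain spans 36 codons in Ereg, Areg, Tgfa and Btc, 37 in Egf and 40 in Nrg1. The extra length of Nrg1 lies mostly in the third gap between neighbouring cysteines, which holds 13 codons there and 10 in the other 5. The deposited values are per gene, so for Nrg1, which has 10 coding transcripts with this domain in 2 versions, of which 1 is shown, they do not tell its isoforms apart.

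The libraries held 15310202 to 20705313 estimated reads. Values are the authors' normalized counts, in which 1 read is worth 0.796 to 1.27 by library. Zfp750, the targeted gene, was 41.9, 3.75 and 314 in the libraries labelled control and 4.90, 1.82 and 7.16 in those labelled knockout. The library labelled control S3 thus held 3 estimated reads of it, within the 2 to 9 of the knockouts. The part of cell types in that low value was not tested. Results are also given without S3 where it moves them. The libraries also differed in the summed values of cell type markers. The 7 basal keratinocyte markers summed to 733 to 24662 in controls, lowest in S3 and highest in S4, and to 3202 to 23213 in knockouts, highest in S7. The 7 fibroblast markers summed to 2972121 to 8904094 in controls and 907865 to 1193912 in knockouts, and most of each sum came from the collagen genes Col1a1, Col1a2 and Col3a1. In such bulk samples, fewer cells of a type and less RNA per cell cannot be told apart.

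The ligand genes Nrg1 and Ereg were higher in the knockout, and none of the 3 receptor genes passed the test. Across the family, 2 of the 8 members that passed the filter on low values were called higher and 0 lower, where 6.71% of all 15935 tested genes were called. Of all tested genes 4.12% were called higher and 2.59% lower. The call is an adjusted p under 0.05 in limma, a linear model fitted across all genes. Ereg passed the filter only through the knockout libraries, so this count is a description. Areg and Btc did not pass it. Without S3 the count was 1, Nrg1. The median log2 fold change was 0.45 over the 8 members and 0.014 over all tested genes. The groups did not overlap for 4 of the 10 members, Nrg1 and Ereg higher and Egf and Btc lower, where 25.3% of all genes in the table were separated in this way. Of the 8 tested members 3 were, against 28.8% of tested genes.

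**Figure D1:**
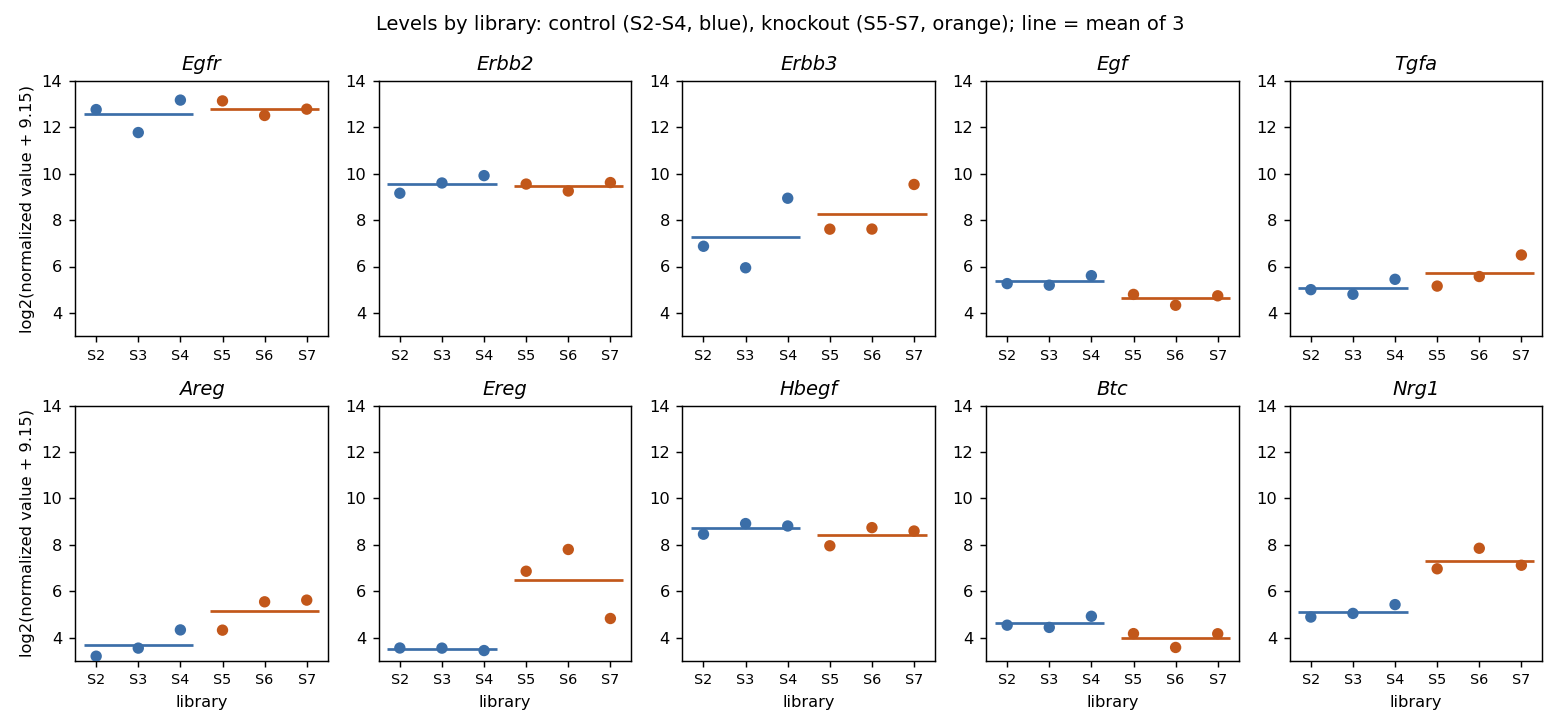
Levels of the 10 genes in each library, as log2 of the normalized value plus 9.15, with controls S2 to S4 in blue, knockouts S5 to S7 in orange and the mean of 3 libraries as a line. Nrg1 and Ereg stood higher in every knockout library than in any control, Egf and Btc lower, and the other 6 genes overlapped between the groups.

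Among the receptors, Egfr was the most abundant transcript of the family. Normalized values were 6970, 3502 and 9257 for control and 9034, 5843 and 7060 for knockout libraries. The groups overlapped over most of their range, and the lowest library was control S3. That library was the poorest in basal keratinocyte markers and the richest in fibroblast markers. The part of these cell types in the Egfr values was not tested. The log2 fold change was 0.24 ± 0.36 (SE; 95% interval -0.61 to 1.09, limma adjusted p = 0.741), and without S3 it was -0.16 (adjusted p = 0.775). An antisense gene, Egfros, overlaps Egfr and was at 36.2 to 306 in controls and 62.9 to 98.1 in knockouts. How the counting treated strand was not given in the sources used here. Where Egfr and Egfros overlap, and likewise Ereg or Egf and their antisense neighbours, reads may have been assigned to either gene.

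Erbb2, the receptor without a ligand, was the steadiest of the 3. Controls had 563, 768 and 960 and knockouts 743, 602 and 778. Mien1, a protein-coding gene on the other strand that overlaps Erbb2, was at 143 to 207 in controls and 124 to 131 in knockouts, and the same limit holds. All 3 knockout Erbb2 values lay within the control range, and the 95% interval of the log2 fold change ran from -0.60 to 0.44 (limma estimate -0.08, adjusted p = 0.858). The estimate turned to 0.24 when all libraries were rescaled to a common total, so its sign depends on the scaling.

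Erbb3, the neuregulin receptor, varied more within the groups than between them. Controls had 108, 52.5 and 484 and knockouts 186, 187 and 734. S4 and S7 were the highest libraries of their groups, and S3 the lowest of all 6. The log2 fold change was 1.00 ± 0.81 (SE; 95% interval -0.90 to 2.90, limma adjusted p = 0.509). With a library left out it ranged from 0.35 without S3 and 0.36 without S7 to 1.84 without S4, and was not called in any of these fits. S4 and S7 also had the most transcript of keratinocyte markers. Epcam, an epithelial adhesion gene, was 19.1, 3.75 and 196, then 82.4, 124 and 441 in the knockouts, and Krt5, a basal keratin, 2503, 62.5 and 11805 and then 1164, 885 and 8559. Sox10, a factor of Schwann cells and melanocytes, which are also known to use ERBB3, was 3.81, 11.2 and 15.1 and then 21.6, 17.3 and 47.7. The part of these cell types in the Erbb3 values was not tested.

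Nrg1 encodes neuregulin, which binds ERBB3 and ERBB4. Control libraries held 20.3, 23.7 and 33.6, from 16 to 40 estimated reads. Knockout libraries held 116, 221 and 130, from 118 to 243 reads. Every knockout library was above every control, and the lowest knockout stood more than 3-fold above the highest control. The mean went from 25.9 ± 6.91 to 156 ± 57.5 (SD over 3 libraries; exact 2-sided permutation p = 0.1, the smallest that 3 against 3 can give), a ratio of 6.01. In limma the log2 fold change was 2.20 ± 0.32 (SE; 95% interval 1.46 to 2.93, adjusted p = 0.00930). The call was lost without control S2 (adjusted p = 0.0511), and over all 20 alternatives the adjusted p was 0.00846 to 0.0519. The gene lies on chromosome 8 (32304579 to 33374825 in the table's own coordinates, minus strand), and 2 noncoding genes on the other strand overlap it in GENCODE M21, Gm26578 and Gm22140.

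Ereg encodes epiregulin, a ligand of EGFR and ERBB4. Controls had 2.54, 2.50 and 1.68, which is 2 estimated reads apiece. Knockouts had 107, 213 and 19.1, which is 109, 234 and 24 reads. The controls sat together near the detection limit, below the 2.52 to 3.81 that 3 reads are worth there, and the knockouts spread more than 10-fold among themselves, with S7 lowest. Summed over the libraries and scaled by depth, the ratio of knockout to control reads was 50.3, with an exact 95% interval of 22.9 to 138 that covers counting error only. In limma the log2 fold change was 2.98 ± 0.70 (SE; 95% interval 1.36 to 4.61, adjusted p = 0.0480). That value lies close to the threshold. Leaving out a control ended the call, with an adjusted p of 0.152 without S2, 0.108 without S3 and 0.0729 without S4. Without S5, S6 or S7 the gene no longer reached the filter of 3 libraries, and with the filter at 2 libraries the adjusted p was 0.103, 0.144 and 0.00939. Over the 16 alternatives that tested it the adjusted p ran from 0.00939 to 0.153.

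Areg encodes amphiregulin, an EGFR ligand made by keratinocytes and by several leukocytes. Controls had 0, 2.50 and 10.9, and knockouts 10.8, 37.4 and 39.8. S6 and S7 were well above all controls, and S5 was level with control S4. Means were 4.48 ± 5.73 and 29.3 ± 16.1 (SD over 3 libraries; exact 2-sided permutation p = 0.2). From 15 summed control reads and 102 knockout reads, the ratio was 5.6 with an exact 95% interval of 3.24 to 10.4 for counting error only. With no filter applied, limma put the log2 fold change at 1.47 ± 0.45 (SE), short of a call (adjusted p = 0.118). In that fit it was called without knockout S5 (1.88, adjusted p = 0.0499) and with a replicate block (2.21, adjusted p = 0.0266). With a filter at 2 libraries it was not called without S5.

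Areg and Ereg lie beside each other on chromosome 5, with Btc and the further ligand gene Epgn. In the table's own coordinates Epgn starts at 91175323, Ereg at 91222481 and Areg at 91287458, all on the plus strand, and Btc runs from 91505120 to 91550853 on the minus strand. The neighbours differed in their order over the knockout libraries. S7 was the highest for Epgn (26.3, against 3.92 in S5 and 3.65 in S6), and the lowest for Ereg. For Areg, S7 and S6 were close (39.8 and 37.4). Epgn, which encodes epigen, overlapped between the groups, with 3.81, 0 and 10.1 in the controls.

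Tgfa encodes TGF-alpha, an EGFR ligand that keratinocytes make. Controls had 22.9, 18.7 and 34.5 and knockouts 26.5, 38.3 and 81.2. S7 stood apart, and S5 lay within the control range. The log2 fold change was 0.66 ± 0.41 (SE; 95% interval -0.29 to 1.61, limma adjusted p = 0.381). Without S7 it was 0.28, so S7 carried most of that difference.

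Hbegf encodes HB-EGF, a heparin-binding ligand released early in wounds. Controls had 342, 473 and 440 and knockouts 239, 418 and 377. S5 was the lowest library, and S6 and S7 lay within the control range. The limma log2 fold change was -0.30 (95% interval -0.87 to 0.28, adjusted p = 0.520), with -0.06 without S5 and 0.018 after rescaling to a common total.

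Egf and Btc were the members with lower normalized values in every knockout library than in any control, and neither passed a test. Egf, the ligand that gave the family its name, stood at 29.2, 27.5 and 39.5 in controls, against 18.6, 10.9 and 17.5 in knockouts. The limma log2 fold change was -0.73 ± 0.31 (SE, adjusted p = 0.205, unadjusted 0.0453; exact 2-sided permutation p = 0.1). Btc, which encodes betacellulin, stood at 13.98, 12.49 and 21.03 in controls, with 8.83, 2.73 and 8.75 in knockouts. These are 10 to 25 estimated reads in a control library and 3 to 11 in a knockout library. With no filter applied, limma gave -0.66 ± 0.30 (SE, adjusted p = 0.265). The separation of both genes depends on the scaling. In CPM of the library total, Egf was 1.5, 1.06 and 2.44 in controls and 1.11, 0.708 and 1.09 in knockouts. Btc was 0.718, 0.483 and 1.3, then 0.528, 0.177 and 0.544, so the groups overlapped for both genes. After rescaling to a common total, limma gave -0.52 for Egf (adjusted p = 0.408) and -0.52 for Btc (no filter, adjusted p = 0.420).

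**Figure D2:**
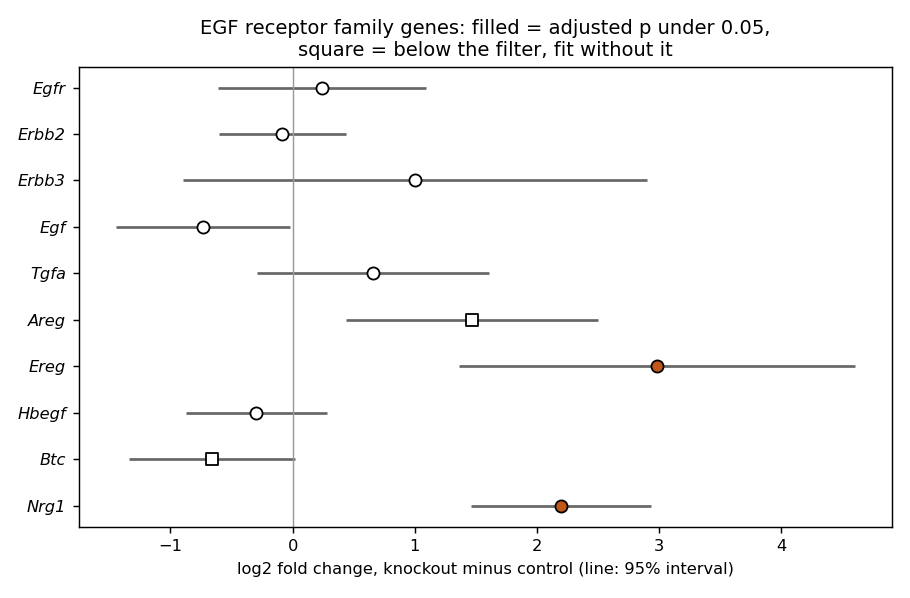
Log2 fold change of knockout against control for the 10 genes, with 95% intervals from limma as lines. Nrg1 (2.20) and Ereg (2.98) are filled as called, circles are genes above the filter, and squares mark Areg (1.47) and Btc (-0.66), which were fitted without it.

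Levels of different genes were compared per kilobase of exon, using the merged exon lengths of GENCODE M21. In controls the order of the mean normalized value per kilobase was Egfr (581 ± 256, SD, n = 3), Erbb2 (147 ± 38.1), Hbegf (86.5 ± 14.1) and Erbb3 (35.7 ± 39.0), and then the 6 other ligands at 3.91 or less. Hbegf and Erbb3 overlapped in range. Within those 6, Tgfa (3.91 ± 1.26), Areg (3.68 ± 4.72), Btc (3.5 ± 1.01), Egf (2.85 ± 0.577) and Nrg1 (2.50 ± 0.668) had overlapping ranges, and Ereg (0.543 ± 0.117) stood below Tgfa, Btc, Egf and Nrg1 in every control library. In knockouts Egfr (646 ± 142), Erbb2 (136 ± 17.8), Hbegf (71.4 ± 19.4) and Erbb3 (61.4 ± 52.6) held the first 4 places by mean, and Erbb3 overlapped both Erbb2 and Hbegf. Ereg (27.4 ± 23.6), Areg (24.1 ± 13.2) and Nrg1 (15.0 ± 5.55) came next and overlapped each other and, in part, Tgfa. In S6 Ereg (51.7) was above Erbb3 (31.1), and its range also overlapped that of Hbegf. By mean they stood ahead of Tgfa (7.49 ± 4.43), Btc (1.5 ± 0.773) and Egf (1.39 ± 0.368).

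The mix of ligand transcripts accordingly differed. Hbegf made up 85.7%, 88.2% and 77.7% of the ligand level summed per kilobase in controls, against 48.0%, 43.7% and 54.2% in knockouts. Ereg held 0.348% to 0.746% of it in controls and 25.1%, 26.1% and 3.21% in S5, S6 and S7, and Nrg1 held 2.07% to 2.78% and 8.71% to 10.8%. For Areg the shares were 0%, 1.85% and 7.68%, then 8.61%, 15.5% and 22.8%. S5 and S6 thus had Ereg as the largest ligand share after Hbegf, and S7 had Areg. The summed level per kilobase itself was 82.5 to 117 in controls and 103 to 198 in knockouts, so it overlapped between the groups. These shares describe the libraries and depend on the exon lengths used.

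**Figure D3:**
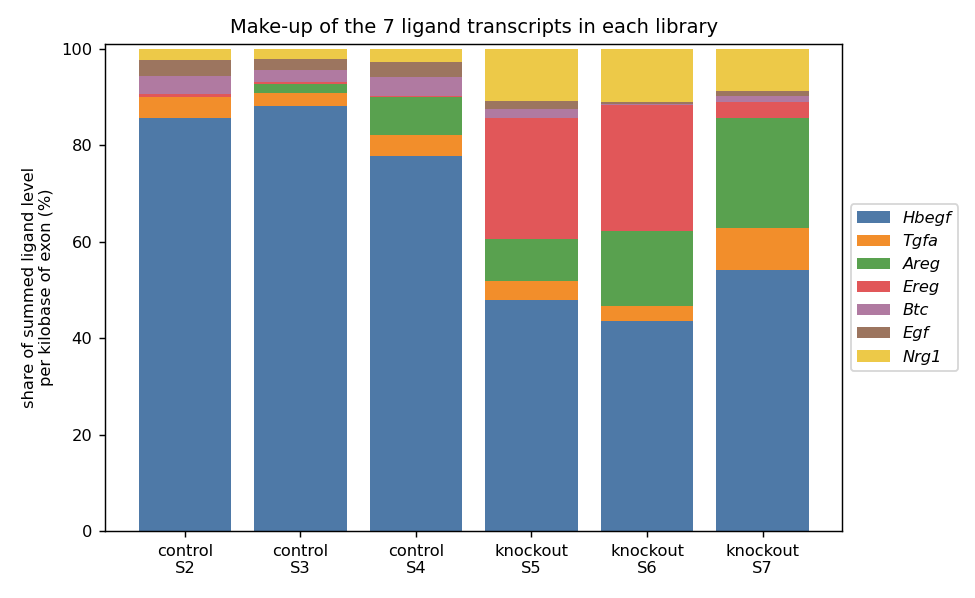
Share of each of the 7 ligand genes in the summed ligand level per kilobase of exon, in percent, for each library. Hbegf takes 77.7% to 88.2% of each control bar and 43.7% to 54.2% of each knockout bar, where Ereg, Areg and Nrg1 fill most of the rest.

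Summed marker lists of other cell types are given beside the ligands. The 6 leukocyte markers, which were all above 0 in at least 1 library of each group, summed to 150, 109 and 1448 in controls, then 700, 2301 and 5942 in knockouts. Of these 6 genes 0 were called by limma, with 3 at an unadjusted p under 0.05, which 3697 of all 15935 tested genes also reached. The 6 mast cell markers summed to 21.6, 46.2 and 443 and then 1036, 3835 and 1394, with 3 of 6 called higher, against 4.12% of all tested genes. Tpsab1 and Fcer1a, 2 of those 3, were at 0 in all controls and passed the filter only through the knockout libraries, so the count is a description. The library with most mast cell transcript, S6, was also the highest for Ereg and Nrg1. The mast cell sum was 1036 in S5 and 1394 in S7, where Ereg was 107 and 19.1 and Nrg1 116 and 130. Control S4, with the largest control sum (443), had the lowest Ereg (1.68) and the highest control Nrg1 (33.6). S7, the highest for leukocyte, macrophage and epithelial markers, was the highest for Tgfa and Erbb3, and close to S6 for Areg (39.8 and 37.4). The leukocyte sum was 1448 in control S4 and 700 in knockout S5, where Ereg was 1.68 and 107 and Nrg1 33.6 and 116. The 7 epithelial markers summed to 412, 43.7 and 2691 and then 433, 599 and 2914, so they overlapped between the groups. The 4 sebocyte markers summed to 592 to 989 in controls and 1453 to 5022 in knockouts. Of these 2 of 4 were called higher, against 4.12% of all tested genes. Those 2, Elovl3 and Awat1, also passed the filter only through the knockout libraries. Pdgfra, a fibroblast receptor gene, rose from 11100 ± 332 to 26291 ± 2887 (SD over 3 libraries; limma adjusted p = 0.0165), while Col1a1 was lower in every knockout library and did not pass (adjusted p = 0.237). The part of any cell type in the ligand differences was not tested.

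**Figure D4:**
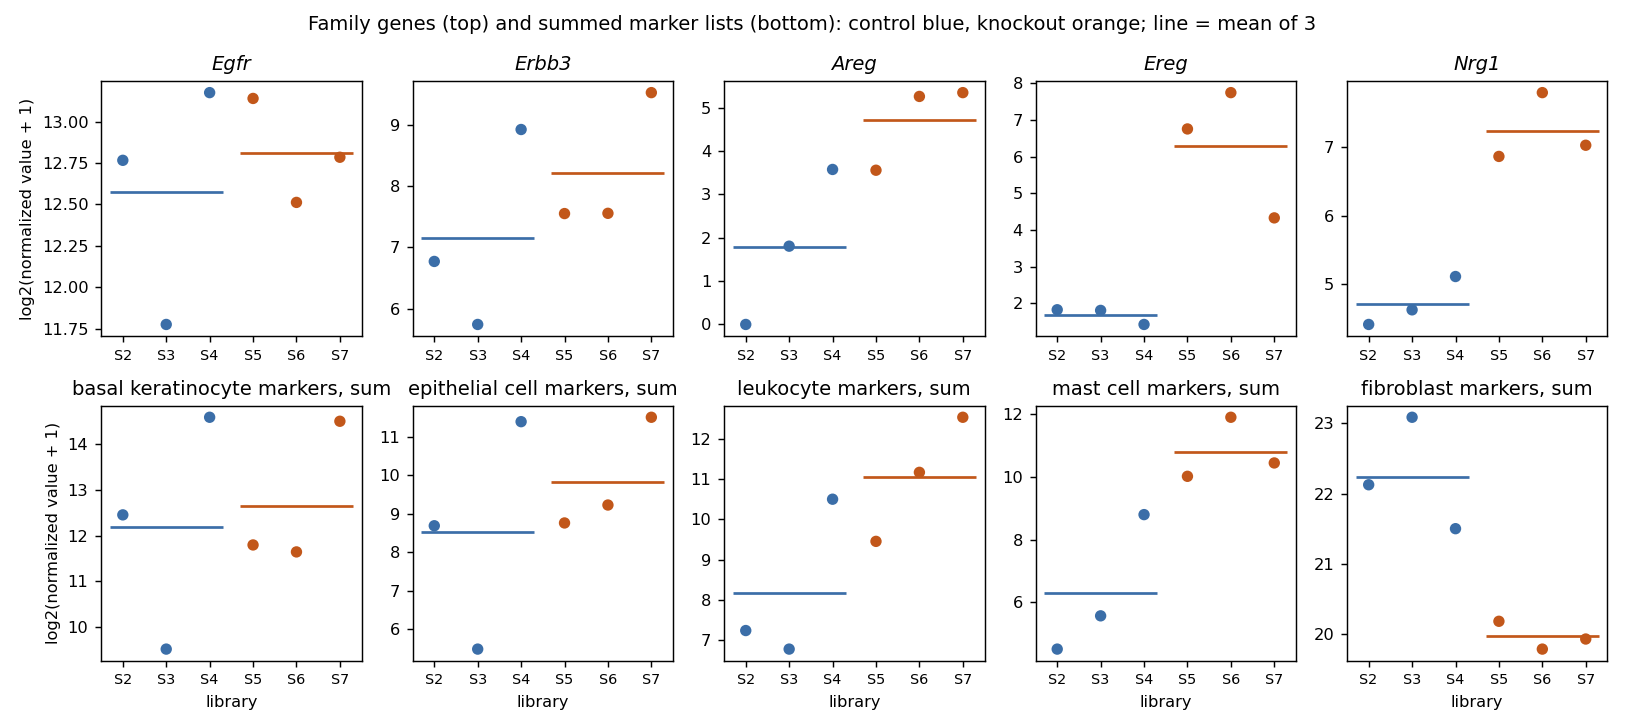
Levels of 5 family genes (top) and of 5 summed marker lists (bottom) by library, as log2 of the normalized value plus 1, with controls in blue, knockouts in orange and the mean of 3 as a line. Erbb3 and the basal keratinocyte and epithelial sums are highest in S4 and S7 within their groups, whereas Nrg1 and Ereg are higher in every knockout than in every control.

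The further genes of the pathway were described by lists. Of the further ligand genes Nrg2 and Nrg4, 0 were called (limma adjusted p = 0.398 and 0.624, and 0 at an unadjusted p under 0.05). Nrg2 was 9.99 to 47.1 in controls and 0.911 to 17.7 in knockouts, and Nrg4 23.7 to 46.0 and 25.6 to 66.6. Erbb4 and Nrg3 were not found by name among the genes of the table, so they are not analysed here.

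Genes that release the ligands or hold back that release changed in 3 of 12 tested cases, 2 higher and 1 lower (median log2 fold change 0.16), where 6.71% of all tested genes were called. Adam9, a membrane protease able to cut HB-EGF, rose from 1468 ± 66.9 to 3131 ± 304 (SD over 3 libraries; limma estimate 1.08 ± 0.14 on the log2 scale, adjusted p = 0.00731), and kept its call in all 20 alternatives. Adam12, a related protease, rose from 987 ± 452 to 3605 ± 429 (1.98 ± 0.36, limma adjusted p = 0.0222), a call lost without S6 or S7 (adjusted p = 0.0902 and 0.0789). Timp3, which encodes an inhibitor of ADAM17 and of matrix metalloproteinases, fell from 13643 ± 3497 to 4263 ± 936 (-1.67 ± 0.26, limma adjusted p = 0.0120), a call lost without S2 or S6 (adjusted p = 0.0552 and 0.0582). Adam17, the main protease for TGF-alpha, amphiregulin and epiregulin, was 1336 ± 71.1 and 1453 ± 246 (0.11, 95% interval -0.27 to 0.49), and Adam10, that of EGF and betacellulin, 1616 ± 275 and 1576 ± 368 (-0.05, 95% interval -0.57 to 0.47).

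Genes listed as dampening the receptors or the signalling below them were called higher in 3 of 19 cases and lower in 0. In this list 17 of 19 estimates were above 0, with a median log2 fold change of 0.45. Among all tested genes 4.12% were called higher, and 8153 of 15935 estimates were above 0. The focal adhesion gene Tns3 rose from 1556 ± 494 to 4632 ± 432 (SD, n = 3 each; 1.62 ± 0.26 SE, limma adjusted p = 0.0136), a call lost without S6 (adjusted p = 0.0735). Lrig3, a relative of Lrig1, rose from 1156 ± 143 to 1931 ± 90.7 (0.74 ± 0.15, limma adjusted p = 0.0303), and the phosphatase gene Ptpn1 from 710 ± 283 to 1577 ± 207 (1.20 ± 0.27, limma adjusted p = 0.0433). Lrig3 lost its call without any library but S3, and Ptpn1 without any but S4, with adjusted p-values up to 0.132 and 0.163 in those fits. Lrig1 itself was 1848, 585 and 2082 in controls, then 1844, 1577 and 2089 in knockouts. Control S3 alone was low for Lrig1, as for Egfr, and the log2 fold change was 0.47 ± 0.45 (SE, limma adjusted p = 0.575), or -0.10 without S3. Errfi1, the feedback inhibitor of EGFR, was at 12135 ± 2523 and 10472 ± 3630 (-0.26 ± 0.32, limma adjusted p = 0.677).

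The median log2 fold change of 36 genes of signal transduction was 0.083. Of these 36 genes 1 was called higher and 0 lower, where 4.12% and 2.59% of all tested genes were. The 1 was the adaptor gene Gab2, which went from 584 ± 146 to 1439 ± 128 (SD, n = 3 each; 1.31 ± 0.21 SE, limma adjusted p = 0.0128), and its call was lost without S6 (adjusted p = 0.0529) and with a replicate block (0.0505). Genes known to respond to ERK, the kinase at the end of the pathway, had a median of 0.34. Of these 17 genes 13 had estimates above 0, where 8153 of all 15935 tested genes did. Calls were 0 higher and 1 lower of 17, beside the same 4.12% and 2.59% of all tested genes. Ccnd1, which encodes the cell cycle regulator cyclin D1, fell from 2470 ± 175 to 438 ± 85.4 (-2.49 ± 0.18, limma adjusted p = 0.000831) and kept its call in all 20 alternatives. Controls had 2268, 2585 and 2557 and knockouts 504, 342 and 468, so the groups were far apart. The feedback phosphatase gene Dusp6 was 1148 and 1091 on average (0.16 ± 0.51 SE, adjusted p = 0.884). Dusp4, a related phosphatase gene, had 163, 44.96 and 139 in controls and 249, 536 and 445 in knockouts, and did not pass (1.85 ± 0.48, adjusted p = 0.0650). Dusp6, Dusp4, Errfi1, Adam10, Adam17, Egfros, Mien1, Epgn, Epcam, Elovl3, Awat1, Col1a2 and Col3a1 were named outside the rule for naming genes, after their values were seen.

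**Figure D5:**
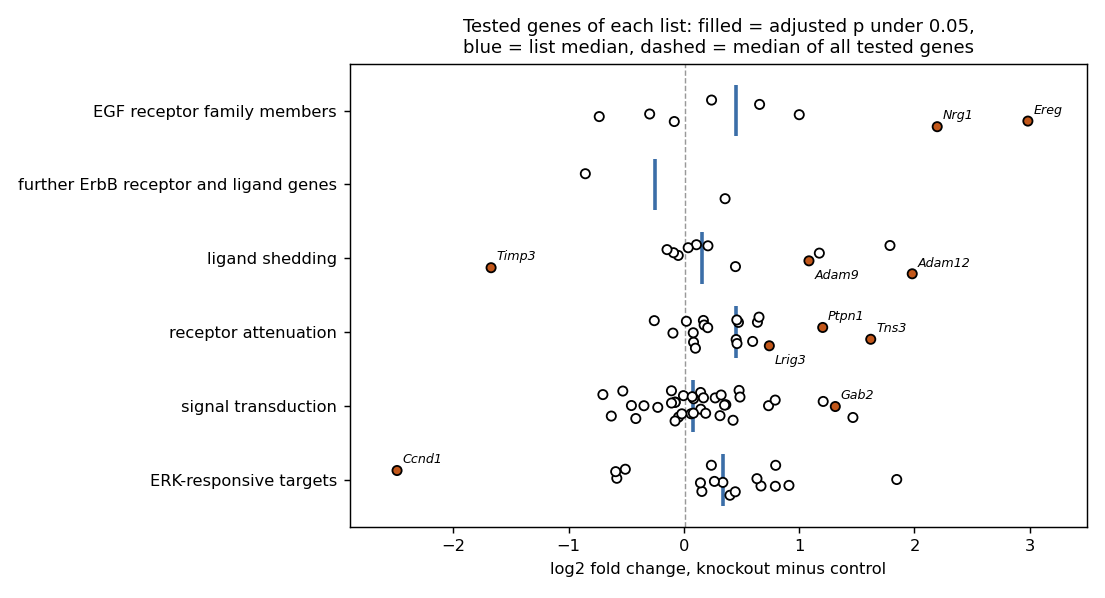
Log2 fold change of knockout against control for each tested gene of the 6 lists, with called genes filled and named, the list median in blue and the median of all tested genes as a dashed line. The family members Nrg1 and Ereg lie farthest to the right, and Ccnd1 and Timp3 farthest to the left.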

How the data were processed

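Sorted skin cells had been sequenced in 3 control and 3 knockout samples. The authors deposited a table of normalized counts, used here as a signal: estimated reads divided by a size factor per library, with no scaling to gene length. Per library, 78.7% to 81.2% of low values (at most 1000 reads) came out whole within 0.05, too few for count models. TopHat2 (2.1.0) and Partek (9.0.20.0202) appear in the submitters' processing notes, with no roles given. The genome build was not given in the sources used here. Column names match groups but no numbered sample. No label says that the libraries are separate mice, so the p-values cover only the spread among these samples, possibly technical. Libraries of a group correlated at 0.929 to 0.971 (Pearson, log2 values across genes).

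limma 3.58.1 (R 4.3.3, empirical Bayes with trend, both directions tested) was run on log2(value + 9.15), a scale that understates changes of low genes. It covered the 15935 genes that reached 1 CPM of the library total (a value of 15.4 to 25.9 by library) in at least 3 libraries. Adjustment was by Benjamini-Hochberg over all of these. The code was tested on simulated data. SciPy 1.17.1 gave the exact permutation tests and the binomial intervals of read ratios. Alternatives covered the pseudocount, filter, scaling, variance model, each library left out, and a replicate block. A gene's end is the table's stop minus 1, since stop minus start equals the GENCODE M21 length for 22116 of 23221 shared genes. The members and lists were chosen with earlier results of these data known. Named were all members, Zfp750, Lrig1, at most 6 called genes per pathway list (with none called, the 2 of highest mean), and a few markers.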

Additional observations from a re-analysis of the deposited data

How the results depend on the processing

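Nrg1 and Ereg kept their direction in every alternative that tested them. Nrg1 kept its call in 18 of 20 and Ereg in 5 of 16. The number of called members was 1 with the larger pseudocount of 2 CPM, with a filter of 5 CPM, without the intensity trend and with a replicate block, and 0 to 1 when a library was left out (0 to 2 with a filter asking for 2 libraries). Leaving out a library gave 270 to 1237 called genes in all, 179 to 697 higher and 74 to 540 lower, and 2 to 8 called genes of the other pathway lists. With the filter at 2 libraries, the totals without S2, S3, S6 and S7 were 325, 575, 334 and 498. Those higher were 233, 403, 231 and 331, and those lower 92, 172, 103 and 167. Rescaling to a common total moved the median log2 fold change by 0.309 and gave 1057 higher genes (78.9% of calls, against 61.4%) and 13 called pathway genes. It turned the sign for Erbb2 (0.24) and Hbegf (0.018). With a library left out, Egfr ran from -0.16 (without S3) to 0.54, Lrig1 from -0.10 (without S3) to 0.80, and Erbb2 from -0.28 to 0.096 (without S4), with 0.027 without S6. None of these was called, and the cause was not tested. The filter at 2 libraries and the block were chosen after seeing the data.

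The block used the numbers at the start of the column names, which are not those of the labels and are shared by 2 control and knockout pairs. Deviations of these pairs correlated at 0.251 and -0.223, and those of pairs with unlike numbers at -0.306 to 0.407. With only 2 pairs, this cannot tell whether the numbers pair the libraries. With this replicate block 706 genes were called lower, Erbb2 was at 0.057, Erbb3 was at 2.17 and Hbegf at -0.018. Ereg (adjusted p = 0.0955), Lrig3 (0.0953) and Gab2 (0.0505) lost their calls, and Areg, fitted without the filter, gained one (2.21, 0.0266). Depth limits Areg, Ereg and Btc, which had 0 to 25 estimated reads in the controls.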
